A study of Mus musculus with 6 samples.

Results

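The collagen and elastic fibre matrix genes are the autosomal collagen chain genes without *Col4a1* and *Col4a2*, the genes of the elastic fibre core (*Eln*, *Fbn1*, *Fbn2*, *Fbln1*, *Fbln2*, *Fbln5*, *Emilin1*, *Mfap2*, *Mfap4*), the lysyl oxidases *Lox* and *Loxl1* to *Loxl4*, and *Fn1* and *Sparc*. A differentially methylated region (DMR) was counted as a member when its midpoint lay in the body of such a gene, so the rule used gene symbol and position and no methylation level. This gave 39 of the 18333 listed DMRs, in 19 of 56 genes. The study compared DNA methylation by T-WGBS, a bisulfite sequencing of the whole genome in which a transposase fragments the DNA and tags it for sequencing, between lung endothelial cells (EC) of infant and young adult C57BL/6N mice. The 3 infant samples came from mice of 8 to 10 days and the 3 young adult samples from mice of 8 to 12 weeks, which the methods of the study give as female. The EC were freshly sorted from lung as CD31+ CD34+ cells negative for PTPRC, LYVE1, LY76, PDPN and propidium iodide. Each DMR had a single mean methylation level per age group. Levels of the single samples were not used here and no difference could be set against the spread between animals, and the coverage behind a level is unknown. Each mean covers many sorted cells, so that a change within cells and a change in the makeup of the sorted population cannot be told apart.

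Collagens are trimers of chains wound around each other. Fibrillar collagens bear the tension of connective tissue, fibril-associated collagens sit on the surface of these fibrils, network-forming collagens build the sheets of basement membranes, and membrane-spanning collagens are anchored in the cell surface. Elastic fibres give the lung and its vessels recoil, with elastin guided by fibulins onto microfibrils of fibrillin and cross-linked by lysyl oxidases, and most of this matrix is deposited while alveoli and vessels form after birth. DNA methylation at CpGs in introns and in front of genes is often low where regulatory elements are in use, although methylation and transcript level need not follow each other.

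The sequences of the 5 largest gains and the 4 losses are shown because the results turn on them. They are plus strand reference sequence of GRCm38 (mm10) from RefSeq, written 5′ to 3′ from the first to the last CpG of the DMR, with CpGs in capitals. The gains come first.
Col14a1 intron 1, chr15:55317111-55317391: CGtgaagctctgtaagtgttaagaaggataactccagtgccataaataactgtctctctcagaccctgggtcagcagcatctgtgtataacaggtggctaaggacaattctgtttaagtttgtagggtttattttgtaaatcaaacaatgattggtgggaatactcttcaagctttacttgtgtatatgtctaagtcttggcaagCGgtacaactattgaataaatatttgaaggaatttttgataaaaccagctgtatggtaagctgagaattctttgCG
Fbln2 intron 2, chr6:91245553-91245682: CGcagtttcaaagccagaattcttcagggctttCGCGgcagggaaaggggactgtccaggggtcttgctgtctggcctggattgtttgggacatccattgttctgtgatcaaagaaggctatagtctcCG
Col9a3 intron 1, chr2:180598704-180598879: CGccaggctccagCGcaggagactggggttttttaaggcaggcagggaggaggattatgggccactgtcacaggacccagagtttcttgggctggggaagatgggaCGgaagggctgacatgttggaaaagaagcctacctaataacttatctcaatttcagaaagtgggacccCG
Col26a1 intron 1, chr5:136863495-136863558: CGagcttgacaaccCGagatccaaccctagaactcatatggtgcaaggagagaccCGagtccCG
Col25a1 intron 29, chr3:130568780-130568934: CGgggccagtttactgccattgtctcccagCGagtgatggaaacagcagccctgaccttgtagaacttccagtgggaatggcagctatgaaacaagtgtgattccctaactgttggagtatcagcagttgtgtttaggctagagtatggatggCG
Col4a3 intron 35 (loss), chr1:82689361-82689399: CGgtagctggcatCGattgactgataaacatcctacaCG
Mfap2 intron 1 (loss), chr4:141012306-141012574: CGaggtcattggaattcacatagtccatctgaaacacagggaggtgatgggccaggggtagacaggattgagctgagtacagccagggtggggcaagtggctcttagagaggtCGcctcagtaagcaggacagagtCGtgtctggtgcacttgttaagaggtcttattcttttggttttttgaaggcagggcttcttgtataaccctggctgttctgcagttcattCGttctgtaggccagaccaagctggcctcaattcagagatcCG
Mfap2 intron 1 (loss), chr4:141011955-141012053: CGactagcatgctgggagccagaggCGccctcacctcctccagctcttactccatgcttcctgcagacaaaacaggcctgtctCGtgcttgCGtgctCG
Col24a1 intron 39 (loss), chr3:145477162-145477270: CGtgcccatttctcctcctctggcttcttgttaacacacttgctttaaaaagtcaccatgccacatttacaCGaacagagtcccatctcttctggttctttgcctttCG
The 5 gains held 3 or 4 CpGs each. Both *Mfap2* losses held 5 CpGs, the highest number in any DMR of these genes, and all 9 sequences lie in introns.

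Of the 39 DMRs, 35 gained methylation from infant to young adult EC and 4 lost it. Gains thus made up 89.7% of the DMRs in collagen and elastic fibre genes, beside 42.1% of the 12080 DMRs in all autosomal gene bodies. The losses were 10.3% of the 39 (95% Wilson interval 4.06 to 23.6%, which covers the number of regions only and treats DMRs of the same gene as separate). Counted by gene, 16 of the 19 genes held only gains (84.2%), against 49.7% of the 4106 autosomal protein-coding genes with a DMR. *Mfap2* and *Col4a3* held only losses, and *Col24a1* held 2 gains and 1 loss.

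**Figure D1:**
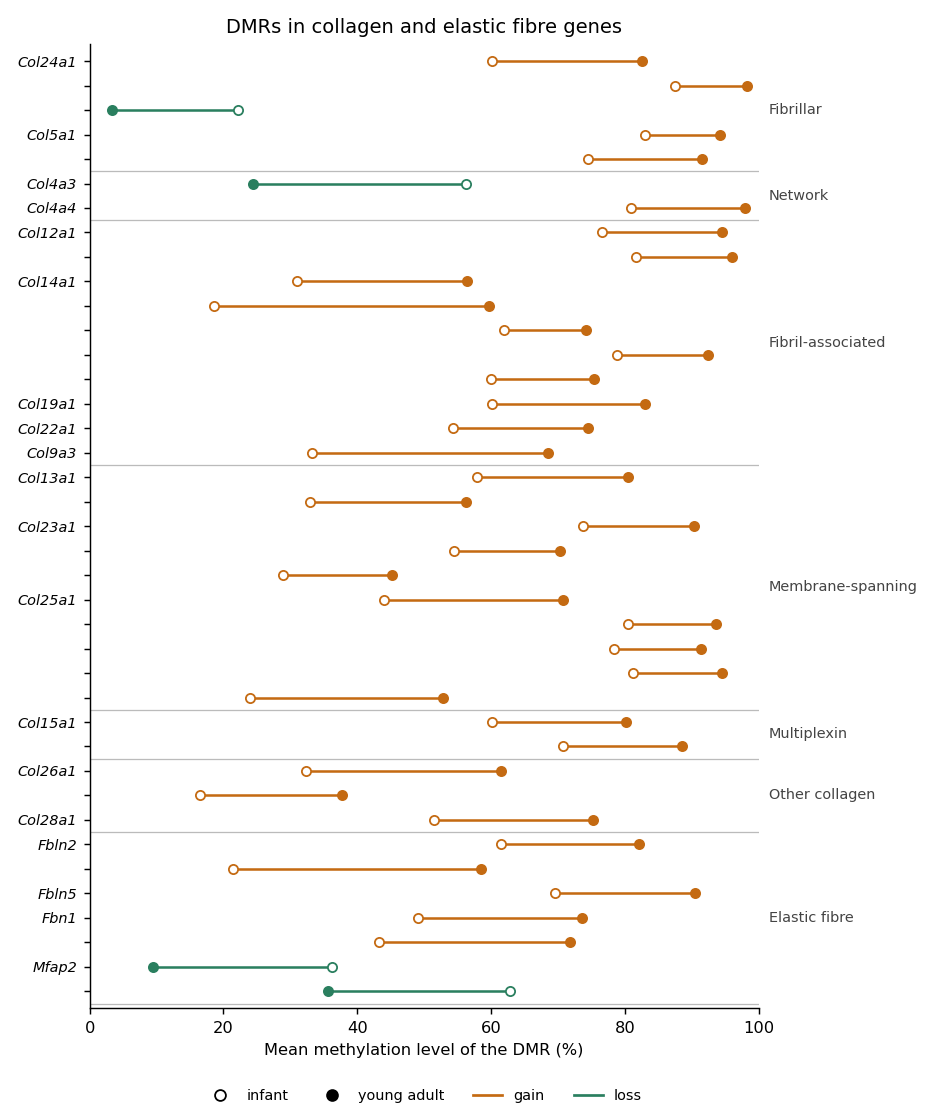
Mean methylation level (%) of each of the 39 DMRs, grouped by matrix family, with the infant mean as an open circle, the young adult mean as a filled circle, and the joining line orange for a gain and green for a loss. The 35 gains end between 37.7% and 98.2% in young adult EC, and the 4 losses lie in *Col24a1*, *Col4a3* and *Mfap2*.

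The gains were moderate in size. Their median difference was 20.2 percentage points (quartiles 15.6 to 24.2, range 10.7 to 41.0), close to the 21.0 points (quartiles 16.1 to 26.8) of the 5088 intragenic gains. They started higher, at a median of 60.2% in infant EC beside 51.9% for all intragenic gains, and ended at 80.3% beside 76.1%. High young adult levels were common, since 18 of 35 gains passed 80% in young adult EC (51.4%, against 43.7%). A gain from a nearly unmethylated state was rare: 2 of 35 were under 20% in infant EC (5.71%, against 16.1%), the *Col26a1* DMR at 16.6% and the *Col14a1* DMR at 18.7%. The 4 losses had a median difference of -27.0 points (range -31.9 to -18.8), beside -32.8 for all intragenic losses, and went from a median of 46.3% to 16.9%. Only 4 of the 39 DMRs (10.3%) differed by at least 30 points in either direction, while 42.5% of all intragenic DMRs did. Of the 5136 intragenic DMRs of that size only 761 were gains, so the gains are also given alone: 3 of 35 reached 30 points (8.57%), against 15.0% of all intragenic gains.

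**Figure D2:**
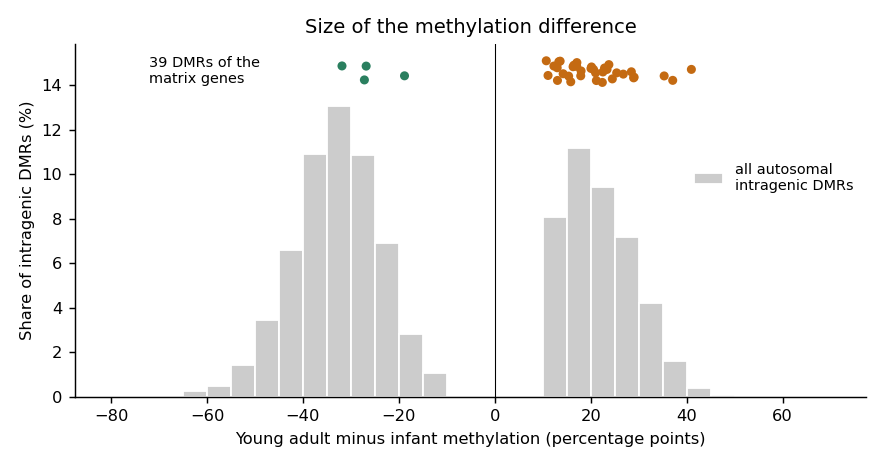
Young adult minus infant methylation (percentage points) for all autosomal intragenic DMRs as grey bars (share of DMRs in bins of 5 points, %), with the 39 DMRs of the matrix genes as points above them (orange gain, green loss; their height is arbitrary). The points crowd between 10.7 and 41.0, and 4 lie below 0.

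Among the fibrillar collagens, 2 of 11 genes carried a DMR. *Col5a1*, whose chain of collagen V starts and limits fibril growth, gained in intron 1 from 83.1% to 94.2% and in intron 4 from 74.4% to 91.6%. *Col24a1*, a minor fibrillar collagen, had 3 DMRs within a stretch of its later introns. Its intron 37 rose from 60.2% to 82.6% and, at a second site, from 87.5% to 98.2%. Its intron 39 fell from 22.1% to 3.29%, the lowest young adult level of the 39. No DMR lay in *Col1a1*, *Col1a2* or *Col3a1*, which encode the main collagens I and III of lung connective tissue. Their bodies have 16.8, 35.9 and 38.2 kb, and only 11.9% of all genes under 50 kb carried a DMR. The nearest listed DMR was 58.2 kb downstream of *Col1a1*, 206 kb downstream of *Col1a2* and 266 kb upstream of *Col3a1*.

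The fibril-associated collagens held 10 gains and no loss, in 5 of 9 genes. *Col14a1*, which encodes a collagen that binds to the surface of fibrils, carried 5 of them and the largest difference of all. Its intron 1 rose from 18.7% to 59.6% at chr15:55317111-55317391, 9500 bp from the start site, a gain of 41.0 points. A second site in intron 1, 1147 bp from the start, rose from 31.0% to 56.4%. Further along, its introns 14, 33 and 41 rose by 12.3, 13.6 and 15.4 points to between 74.3% and 92.4%. In *Col14a1* the sites near the start were thus low in infant EC and gained most, while the later ones started at 60.0% or more and gained less.

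*Col9a3*, a chain of the cartilage collagen IX, had its only DMR 548 bp from the start site, the DMR of all 39 nearest to its own start, and rose from 33.2% to 68.6%. *Col19a1*, a fibril-associated collagen of basement membrane zones, rose in intron 2 from 60.2% to 83.1%. *Col22a1*, a collagen of tissue junctions, rose in intron 44 from 54.4% to 74.5%. *Col12a1*, a partner of collagen I fibrils, rose in intron 34 from 76.6% to 94.6% and in intron 54 from 81.7% to 96.0%.

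The membrane-spanning collagens held 10 gains and no loss, in 3 of 4 genes, the highest share of any family. These 3 genes are long (141, 294 and 419 kb), and *Col17a1*, without a DMR, has 45.7 kb. Among all genes, 43.5% of those of 50 to 150 kb and 66.9% from 150 kb carried a DMR, beside 11.9% under 50 kb. *Col25a1*, a transmembrane collagen known from neurons and muscle innervation, had 5 gains, from 51.2 kb to 388 kb past its start. The sites in introns 5 and 9 and the second in intron 2 were near 80% in infant EC (78.3% to 81.2%) and rose by 13.0 to 13.4 points, whereas intron 29 rose from 23.9% to 52.9% and the first site in intron 2 from 44.0% to 70.8%. *Col23a1* rose in intron 3 from 73.8% to 90.3%, in intron 5 from 54.5% to 70.3% and in exon 8 from 28.9% to 45.2%. That exon 8 region of 19 bp was the only exonic DMR of the 39. *Col13a1*, a collagen of cell adhesion sites, rose at 2 sites in intron 2, from 32.9% to 56.3% and from 57.9% to 80.4%.

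The network-forming chains held 1 gain and 1 loss, of 3 CpGs each, in 2 of 5 genes. *Col4a3* and *Col4a4* encode chains of the collagen IV found in specialised basement membranes such as those of the alveolus, and are transcribed in opposite directions from neighbouring starts. *Col4a4* rose in intron 1, 1126 bp from its start, from 80.9% to 98.0%. This gain also lay 1.2 kb upstream of the *Col4a3* body. *Col4a3* fell in intron 35, 102459 bp from its start, from 56.2% to 24.4%, the largest loss of the 39. *Col15a1*, a collagen between basement membrane and stroma, rose in intron 2 from 60.2% to 80.3% and in intron 14 from 70.7% to 88.6%. *Col18a1*, the related source of endostatin, had no DMR in its body. Of the remaining collagens, *Col26a1* rose at 2 sites in intron 1, from 32.4% to 61.4% and from 16.6% to 37.7%, and *Col28a1* rose in intron 1 from 51.4% to 75.2%.

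Of the 9 elastic fibre genes, 4 carried 5 gains and 2 losses. *Fbln2*, which encodes a fibulin of vessel walls, rose in intron 2 from 21.4% to 58.5%, the second largest gain, and at another site of intron 2 from 61.6% to 82.2%. *Fbn1*, which encodes fibrillin-1, the backbone of microfibrils, rose in intron 4 from 49.1% to 73.6% and in intron 9 from 43.3% to 71.8%. *Fbln5*, whose fibulin is required for elastic fibre assembly, rose in intron 7 from 69.5% to 90.5%. *Mfap2*, which encodes a small glycoprotein bound to microfibrils, went the other way: its neighbouring sites in intron 1 fell from 36.3% to 9.47% and from 62.8% to 35.6%. No DMR lay in *Eln*, *Fbn2*, *Fbln1*, *Emilin1* or *Mfap4*, nor in any of the 5 lysyl oxidase genes, nor in *Fn1* or *Sparc*. Apart from *Fbn2* (201 kb), *Loxl2* (86.4 kb), *Fbln1* (80.3 kb) and *Fn1* (67.8 kb), these bodies are under 50 kb. Of all genes under 50 kb, 11.9% carried a DMR, so most such genes have none. At 50 to 150 kb the share was 43.5%, and from 150 kb it was 66.9%.

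**Figure D3:**
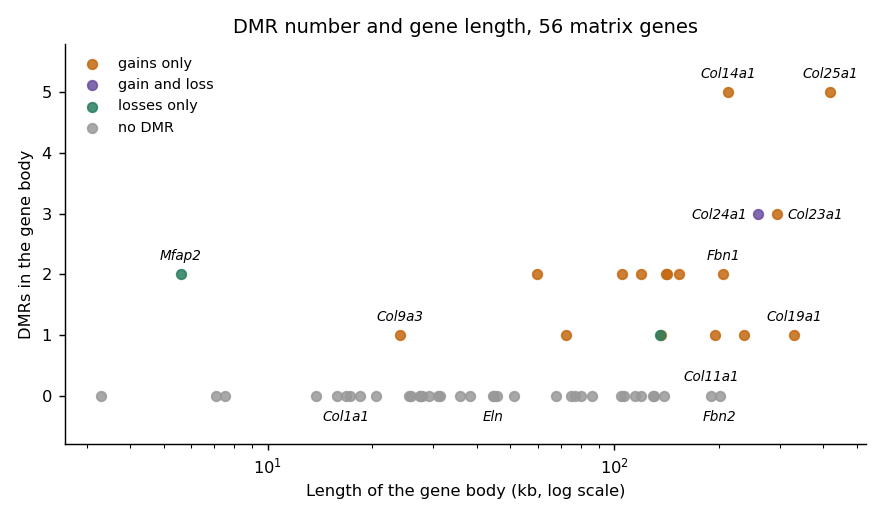
Number of DMRs in the gene body against the length of the gene body (kb, log scale) for the 56 genes, coloured by the direction of their DMRs. Genes under 50 kb carry a DMR in 2 of 24 cases, and no gene has more than 5.

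With 19 of 56 genes, 33.9% of the collagen and elastic fibre genes carried a DMR, beside 20.5% of the 20021 autosomal protein-coding genes. These genes are long, with a median body of 73.8 kb beside 16.9 kb. The comparison was therefore repeated in classes of length. Under 50 kb, 2 of 24 genes had a DMR (8.33%, against 11.9% of all genes of that length), *Mfap2* and *Col9a3*. Between 50 and 150 kb it was 8 of 21 (38.1%, against 43.5%), and from 150 kb it was 9 of 11 (81.8%, against 66.9%). *Col11a1* and *Fbn2* were the 2 long genes without a DMR. Per length, the genes held 6.39 gain DMRs per Mb of gene body, beside 5.05 for all genes, and 0.731 loss DMRs per Mb, beside 7.29. By class, gains were denser than in all genes only from 150 kb (8.16 per Mb, beside 4.34). They were level at 50 to 150 kb (5.47, beside 5.46) and sparser under 50 kb (1.71, beside 5.95). Losses were sparser in each class: 3.42 beside 9.14 under 50 kb, 0.456 beside 10.9 at 50 to 150 kb, and 0.371 beside 4.20 from 150 kb. None of the 56 genes reached a cluster of more than 5 DMRs, which 2.28% of all genes did.

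The DMRs were spread along the gene bodies. Of the 39 DMRs, 38 were intronic (97.4%, against 87.8% of intragenic DMRs) and 1 was exonic (2.56%, against 9.99%). None lay at a promoter or transcript end. Such positions were rare in the background too, with 169 of the 12080 intragenic DMRs at a promoter and 99 at a transcript end. Their absence among 39 DMRs therefore does not set these genes apart. Intron 1 held 10, introns 1 to 3 held 19, and later introns held the other 19. The midpoints lay at a median of 41.0% along the gene, 20 before and 19 after the middle. The distance to the gene's own start ranged from 0.548 to 388 kb (median 57.8 kb), with 7 DMRs within 10 kb. None lay in the body of another gene as well.

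**Figure D4:**
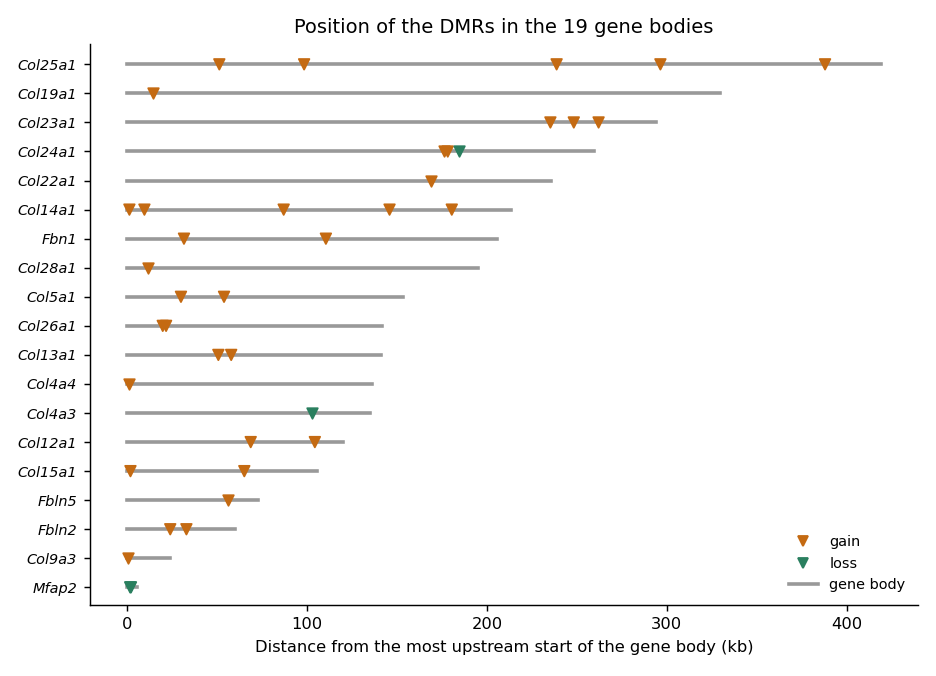
Position of the 39 DMRs along the 19 gene bodies, as distance (kb) from the most upstream start of each gene, with orange triangles for gains, green triangles for losses and a grey line for the gene body. The DMRs are spread over the bodies, with 7 within 10 kb of the start of their gene.

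The regions held few CpGs and were mostly isolated. Of the 39, 29 held 3 CpGs (74.4%, against 62.2%), the fewest the authors' rule allowed, and the median width was 191 bp (range 15 to 597), beside 126 bp. Among gains alone the share with 3 CpGs was 77.1%, beside 76.8%. The median GC content of the 200 bp around the midpoint was 45.0%, beside 49.0%, and the median number of CpGs there was 3, beside 4. Sequence-defined CpG islands touched 4 DMRs (10.3%, against 14.3%), in *Col26a1*, *Col14a1*, *Col5a1* and *Col23a1*, and these 4 were gains. Another DMR lay within 10 kb of 14 members (35.9%, against 59.8%). The nearest had the same direction in 13 of these 14, a share close to the 6638 of 7224 among all intragenic DMRs with such a neighbour. The exception among the members was the *Col24a1* loss, 6435 bp from a gain. Taking gains alone, 31.4% had a neighbour within 10 kb, beside 41.1% of intragenic gains.

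Short motifs were counted in the 200 bp windows on both strands, as letters only. The SOX core ACAAT was present in 15 of 35 gains (42.9%), beside 26.3% of intragenic gains. The GATA core GATAA was present in 34.3%, beside 21.9%, and the E-box CANNTG in 77.1%, beside 66.5%. The ETS core GGAA was present in 85.7%, beside 89.7%, the KLF letters CACCC in 28.6%, beside 37.7%, and the SMAD letters CAGACA in 11.4%, beside 18.5%. The AP-1 letters TGANTCA (8.57%, beside 5.90%), the forkhead letters TGTTTAC (5.71%, beside 2.99%) and the TEAD letters GGAATG, which contain the ETS core (11.4%, beside 12.1%), were each in 4 windows or fewer. The SMAD palindrome GTCTAGAC was in none of the 35, beside 0.216% of intragenic gains. In windows that are poorer in GC, A- and T-rich letters are met more often, and the part of GC content in these shares was not tested.

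Outside the bodies, 16 DMRs lay within 10 kb of the 56 genes, 12 gains and 4 losses, and 12 of them, 10 gains and 2 losses, lay in no gene body. Among the 6088 autosomal DMRs outside all gene bodies 76.6% were gains, close to the share in these flanks. Within 50 kb the 49 DMRs were split into 25 gains and 24 losses, and the 27 in no gene body into 20 gains and 7 losses. Of the 24 losses, 10 lay around *Mfap2* and 4 around *Col8a2*, and neither gene had a gain within 50 kb outside its body. Several of the gains within 10 kb were close to starts of genes that are mentioned above. In front of *Fbln5*, a DMR 779 bp upstream rose from 50.0% to 78.1%, so that *Fbln5* gained both at its promoter and in intron 7. *Sparc*, a collagen-binding protein with no DMR in its body, rose from 71.4% to 91.4% at 499 bp upstream. Both sequences are shown because they are the gains closest upstream of a start.
Fbln5 upstream, chr12:101819869-101819930: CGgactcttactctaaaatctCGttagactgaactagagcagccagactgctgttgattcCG
Sparc upstream, chr11:55420518-55420643: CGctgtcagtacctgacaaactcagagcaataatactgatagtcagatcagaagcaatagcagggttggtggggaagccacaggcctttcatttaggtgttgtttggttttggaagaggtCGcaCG
Upstream of *Col15a1*, DMRs at 1510 bp and further out rose from 38.4% to 69.4% and from 51.0% to 77.9%, in the same direction as the gains in its body. *Fbln2* (56.7% to 81.4%), *Col18a1* (67.5% to 94.0%) and *Fbn1* (39.3% to 60.5%) also had a gain upstream within 10 kb. Past the end of *Mfap2*, inside the neighbouring gene *Crocc*, 2 DMRs fell from 48.8% to 13.1% and from 38.9% to 15.0%, the direction of the *Mfap2* losses.

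The list of the authors also names the promoter nearest to each DMR, and this gave another picture for elastin. *Eln* was the nearest promoter of 10 DMRs, all intergenic and upstream of the gene, with 6 losses and 4 gains. The closest, 6.81 kb upstream, fell from 48.1% to 6.05%, and the largest gain among them rose from 33.1% to 68.3%. *Col6a1*, with no DMR in its body, was the nearest promoter of 3 losses inside *Pcbp3*, the largest from 64.4% to 16.5%. By nearest promoter 55 DMRs belonged to the matrix genes, with 16 losses (29.1%) and 39 gains, while 53.7% of all 18168 autosomal DMRs were gains. The 32 of them outside the bodies were 14 losses and 18 gains. Of the 39 DMRs within the bodies, 23 had their own gene as nearest promoter, 15 that of another gene and 1 an identifier without a match. The intron 35 loss of *Col4a3*, for example, was listed under *Mff*.

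Other matrix genes were counted from lists chosen by function. Their counts are to be read beside the 20.5% of genes with a DMR and the 57.9% of intragenic DMRs that were losses. The lists were not matched for gene length. The share of all genes with a DMR was 11.9% under 50 kb, 43.5% at 50 to 150 kb and 66.9% from 150 kb. Partners of microfibrils and elastic fibres held 17 gains and no loss in 6 of 15 genes (median 22.6 points), led by 5 gains each in *Ltbp1*, which holds latent TGFβ on microfibrils, and *Adamtsl5*. Small proteoglycans and matricellular genes held 10 gains and no loss in 6 of 15 autosomal genes, 5 of them in *Sparcl1*, where the largest rose from 13.5% to 60.3%. The collagen-processing enzymes were mixed, with 8 losses and 6 gains in 8 of 22 genes. *Colgalt2*, which adds sugars to collagen, held 5 of these losses and 1 gain. Proteases and inhibitors held 8 losses and 6 gains in 5 of 10 genes, including 7 losses in *Timp2*, an inhibitor of matrix metalloproteases. The collagen and fibronectin receptors held 15 losses and no gain, in 3 of 12 genes, with 11 losses in *Itga1*, the collagen-binding integrin α1. The basement membrane genes held 34 gains and 11 losses, in 12 of 17 genes. Of these gains, 19 lay in *Hspg2* (perlecan), while *Col4a1* had 4 losses and *Col4a2* 3 losses and 2 gains. By count, the collagen and elastic fibre genes had 35 gains among 39 DMRs and the receptors 15 losses among 15, the latter from 3 genes only. Of these 15 losses, 11 in *Itga1* and 2 in *Itga2* lay close together on chromosome 13, and 2 lay in *Itgav* on chromosome 2.

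**Figure D5:**
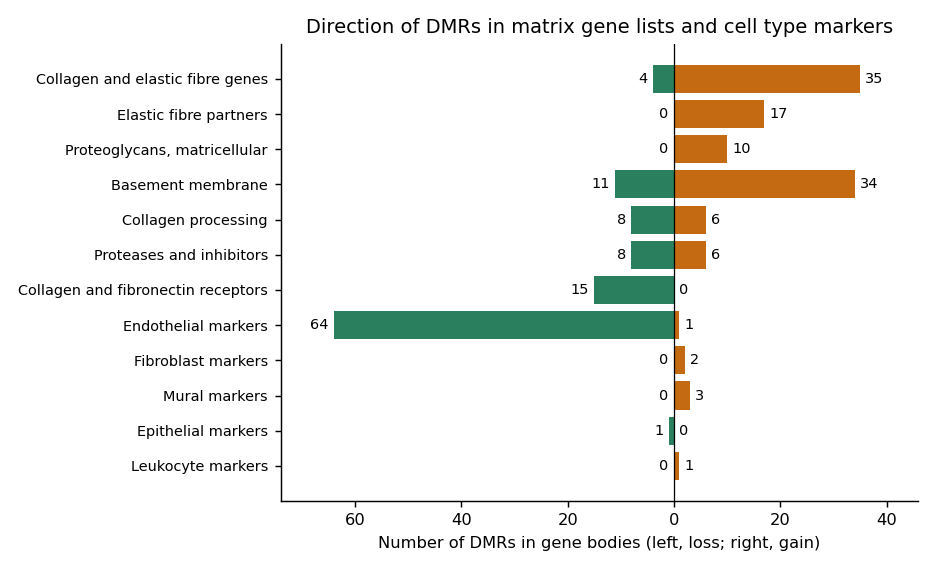
Number of DMRs in the gene bodies of each list, losses to the left in green and gains to the right in orange. The collagen and elastic fibre genes have 4 losses and 35 gains, the receptors 15 losses and no gain, and the endothelial markers 64 losses and 1 gain.

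A DMR list shows no level outside DMRs, so it cannot show which cells were sampled. The study tested its sorted populations by qPCR of marker genes. DMR counts in marker genes are given here as description only. The 10 endothelial markers held 64 losses and 1 gain in 8 genes, with a median of -33.7 points, among them *Pecam1*, *Cdh5*, *Erg* and the ETS factor gene *Ets1*, whose 12 DMRs were losses. *Pecam1*, which encodes CD31, went from a median of 60.5% to 18.6% over its 15 DMRs. Markers of other cells that make this matrix held 2 gains in 2 of 8 fibroblast genes and 3 gains in 3 of 8 mural and smooth muscle genes (*Cspg4*, *Acta2* and *Myh11*). The share of all genes with a DMR was 20.5%, which is not matched to these lists for gene length. The 7 epithelial markers held 1 loss and the 6 leukocyte markers 1 gain. These changes stand beside the gains in the collagen and elastic fibre genes, and their part in them was not tested.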

How the data were processed

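The deposited list gave, for each DMR, the mean methylation of both groups as a fraction, a mean made by the authors from its CpGs and the 3 samples of a group. Per the methods, the authors trimmed reads with SeqPrep, aligned them with BWA 0.6.1 to bisulfite-converted mm10, removed duplicates with Picard, and called DMRs with bsseq in R 3.2.2 without smoothing. They kept CpGs covered at least 8-fold in at least 2 of 3 samples per group, and required 3 consecutive CpGs that each passed a per-CpG test, with group means 10% apart. The regions were thus selected on the samples whose means they give, which can enlarge the differences, and sites of low coverage are missing. The depth is unknown here, and RNA-seq, reads and values per sample were not used here.

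Fractions were turned into percent, and the difference is young adult minus infant. The first and last base of 18333 of 18333 DMRs was a CpG of GRCm38, and coordinates are given from the C of the first to the G of the last CpG. Gene bodies were the union of 45756 curated RefSeq transcripts of 26180 genes, and promoters ran from 1 kb upstream to 100 bp downstream. A CpG island was a 200 bp window touching the DMR with at least 50% GC and an observed over expected CpG ratio above 0.6. Python 3.11.15 with pandas 2.3.3 was used. The assignment of midpoints to gene bodies was run on simulated regions planted in or outside those same bodies. This checks the code only, and not the annotation or the placement in exons, introns and promoters.

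No test was made, as only group means were used. The members and lists were chosen with earlier results of these data known. By rule the text names the 5 largest gains, the 5 largest losses (4 existed), and genes of other lists with more than 5 DMRs. Other genes were named after their values were seen. X-linked *Col4a5* and *Col4a6* had 0 DMRs.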

Additional observations from a re-analysis of the deposited data

How the results depend on the processing

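Of 94 values recomputed under the alternatives, 77 were labelled as unchanged, 16 as moved and 1 as changed in direction. The alternatives of any overlap with the gene body and of X-linked members returned the same 39 DMRs, so their values could not move. Counts were held against 1.5 times the count reported, and values with an interval against that interval. These intervals are wide. With *Col4a1* and *Col4a2*, 22.9% were losses and 20.8% reached 30 points, each beside 10.3%, and both were labelled as unchanged. The median of the losses had no interval and is no count, so its labels rest on neither limit. With a difference of at least 20 percentage points, 22 DMRs remained, with a median of 23.1 over all and 23.8 over gains, and 100% were intronic. With at least 5 CpGs only the 2 *Mfap2* losses in 1 gene were left, so that 100% were losses with a median of -27.0, 100% were intronic and 0% reached 30 points. By nearest promoter 29.1% were losses, with medians of -35.4 for losses and 23.8 for gains, 1 gene (*Eln*) had more than 5 DMRs, 49.1% were intronic and 27.3% reached 30 points. With bodies widened by 10 kb, 72.7% were intronic. These shifts follow from the DMRs that each alternative takes in or drops. Gains were the larger number in all sets except that of at least 5 CpGs: 30 of 34 without *Col14a1* or without *Col25a1*, 37 of 48 with *Col4a1* and *Col4a2*, and 17 of 19 with each gene counted once. No paired analysis was possible because the list held group means and no values per sample, and fits without a replicate were not run for the same reason.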
